A study of Mus musculus with 18 samples.

Results

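Cd44 (ENSMUSG00000005087.17) is the mouse gene of a cell surface glycoprotein that binds hyaluronan and osteopontin, and it lies on the minus strand of chromosome 2, from 102811141 to 102901665 on GRCm38. It was chosen from measured values of these same libraries, namely the Cd44 gene total and counts at single positions by genotype, together with the counts over its variable exons against its constant exons. Its values by genotype are therefore given as a description, without a test. Of 1825851 positions in the table, 883 carry the name Cd44, and 696 of these had at least 1 count. They held 65610 counts in all, which placed Cd44 at rank 12 of the 652 annotated genes with at least 500 counts.

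The libraries came from ribose oxidation sequencing (RibOxi-seq), in which RNA fragments that end in a 2′-O-methylated nucleotide withstand oxidation and are ligated to a 3′ linker, so that the 3′ end of each read marks a protected nucleotide. Poly(A) RNA was taken from 4T1 WT cells, a mouse triple-negative breast cancer line, and from Snord67KO-1 and Snord67KO-2. The latter are clones of single 4T1 cells in which CRISPR/Cas9 with paired guides was used to delete Snord67, a snoRNA that guides methylation of U6 snRNA. All cells carried lentiviral mCherry and Renilla luciferase and were grown in puromycin, and there were 3 biologic replicates of the oxidized libraries per genotype. Each genotype without Snord67 is thus represented by 1 clone, and what belongs to the clone and what belongs to the deletion cannot be told apart from a single contrast. The 9 control libraries were not analysed here, so protected ends cannot be separated from the background of other ends at a position.

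Cd44 pre-mRNA is a textbook case of alternative splicing. Constant exons at both ends encode the hyaluronan-binding, transmembrane and cytoplasmic parts, and the variable exons between them add stretches to the extracellular stem. The standard form skips all variable exons, and variant forms are known from epithelial cells and from tumours. The annotation used here (GENCODE M21) gave 8 protein-coding transcripts and 19 exons, of which exons 6 to 15 are the 10 variable exons, v1 to v10, and 9 are constant. In these libraries, however, the Cd44 total was not a measure of spliced Cd44 mRNA, since 98.8% of its counts lay in a short stretch of 1 intron and only 1.06% lay in exons.

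Library totals ranged from 212463 to 737219 counts, with the lowest values in Snord67KO-2, and 19.3% to 32.4% of a library lay in the ribosomal RNA precursor Rn45s. Positions that the authors marked as mispriming held 1.38% to 17.8% of a library, with the highest share in 4T1 WT replicate 2. The deletion could not be checked in these counts, because only 1 position inside Snord67 was listed, with 1 count in a Snord67KO-1 library and 0 in the others, and position 60 of the 43 identical U6 copies had 0 counts in every library. These copies held at most 2 counts in any library, so the 0 does not describe methylation of that site. The paper, which also mapped reads to U6 itself, reports methylation at C60 in 4T1 WT and its loss in knockout cells.

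The sequences of variable exons v8 to v10 and of the most counted exonic position are shown because they carry the exonic counts discussed below. They are written 5′ to 3′ along the minus strand, from the GENCODE M21 transcripts. Capitals mark each base at which at least 1 read end was counted in any library, except in the last sequence, where the capital marks only the position named.

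variable exon 8 (chr2:102834234-102834335): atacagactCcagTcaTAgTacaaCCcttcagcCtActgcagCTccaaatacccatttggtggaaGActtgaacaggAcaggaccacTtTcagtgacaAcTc
variable exon 9 (chr2:102832483-102832572): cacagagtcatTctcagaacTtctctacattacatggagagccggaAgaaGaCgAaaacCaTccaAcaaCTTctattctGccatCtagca
variable exon 10 (chr2:102831330-102831536): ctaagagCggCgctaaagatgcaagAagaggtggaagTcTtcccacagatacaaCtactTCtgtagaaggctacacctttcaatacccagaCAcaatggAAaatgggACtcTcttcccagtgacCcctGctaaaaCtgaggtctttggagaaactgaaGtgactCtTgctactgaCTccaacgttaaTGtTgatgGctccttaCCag
3′ untranslated region of exon 19 (chr2:102813317-102813346): gcaaagtctgagtcTttgtagcacatcagt

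The intronic counts came from 75 listed positions between 102829331 and 102829441, a stretch of the 2719-base intron between exon 15 (v10) and exon 16. Its most counted position lay 1951 bases after v10 and 769 bases before exon 16. None of its positions was marked as mispriming (0 of 75). Only 3 positions held 94.6% of all Cd44 counts, namely 102829379 with 25548, 102829412 with 18990 and 102829382 with 17531 counts. Position 102829384, 5 bases 5′ of the most counted one along the transcript, was the fourth with 799 counts, and 102829431 followed with 767. The next positions, 102829332, 102829378 and 102829376, had 161, 88 and 48 counts.

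Such a concentration was rare but not limited to Cd44. Among the 652 annotated genes with at least 500 counts, the median gene had 25.4% of its counts within 100 bases of its most counted position, and 45 genes had at least 90%. Of these 45 genes, 27 had that position outside annotated exons, as Cd44 did. The median gene of the 652 had 95.4% of its counts in exons.

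Scaled to a library total of 1000000 counts (CPM), the intron stretch stood at 16283, 10102 and 15890 CPM in the 4T1 WT libraries. The Snord67KO-1 libraries had 10436, 11561 and 12270 CPM, and the Snord67KO-2 libraries had 16605, 16295 and 13580 CPM. The ranges of the clones did not overlap each other, but both overlapped the range of 4T1 WT, in which replicate 2 lay well below the other replicates. With errors given here and below as the SD over the 3 libraries of a genotype (n = 3), the mean was 14092 ± 3461 CPM for 4T1 WT. Snord67KO-1 averaged 11423 ± 925 and Snord67KO-2 averaged 15494 ± 1665 CPM.

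**Figure D1:**
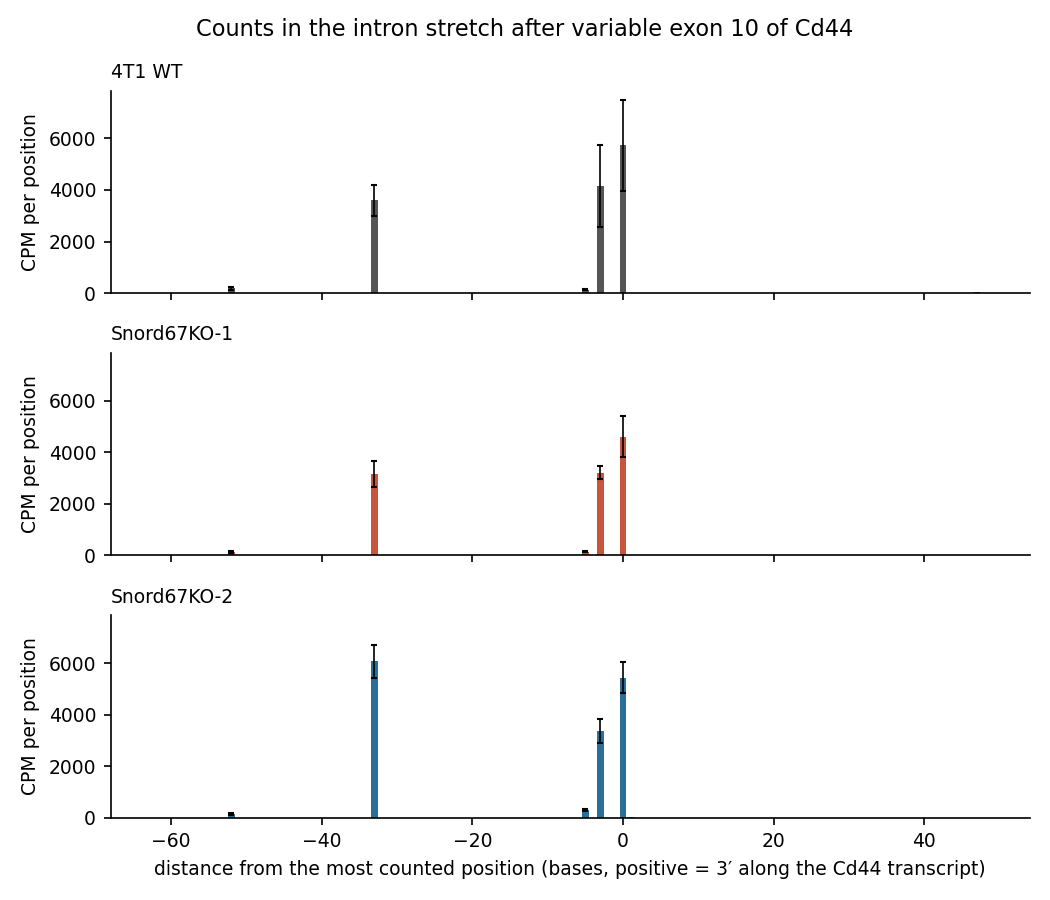
Mean CPM (± SD over 3 libraries, drawn where the mean is over 100) at each listed position of the Cd44 intron stretch, against the distance in bases from the most counted position along the transcript, with a panel per genotype. Positions at 0, -3 and -33 hold nearly all counts in each genotype, and the position at -33 is the highest only in the Snord67KO-2 panel, with a mean of 6066 CPM.

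The relative use of the 3 leading positions differed in Snord67KO-2. Position 102829412 held 26.3%, 33.2% and 19.7% of the counts of the stretch in 4T1 WT, 25.7%, 32.0% and 25.3% in Snord67KO-1, and 39.9%, 38.2% and 39.4% in Snord67KO-2. Every Snord67KO-2 library therefore lay above every other library at this position. Position 102829382 showed the opposite order, with 28.7%, 23.3% and 34.0% in 4T1 WT, 28.1%, 29.9% and 26.4% in Snord67KO-1, and 22.0%, 22.1% and 20.9% in Snord67KO-2. At the most counted position 102829379 the 4T1 WT range of 36.7% to 43.0% and the Snord67KO-1 range of 33.8% to 44.5% overlapped, and Snord67KO-2 lay between 34.3% and 35.9%.

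Position 102829384 had 117, 128 and 149 CPM in 4T1 WT, 162, 128 and 122 CPM in Snord67KO-1, and 329, 250 and 284 CPM in Snord67KO-2. Levels in Snord67KO-1 lay around those of 4T1 WT, and all 3 Snord67KO-2 libraries lay above all others. As a share of the stretch, the same position averaged 0.974% ± 0.279 for 4T1 WT, compared with 1.22% ± 0.293 for Snord67KO-1 and 1.87% ± 0.296 for Snord67KO-2 (SD, n = 3). By this share the clones overlapped, as Snord67KO-1 reached 1.55% and the lowest Snord67KO-2 library had 1.53%. Raw counts at this position were 86, 82 and 93 in 4T1 WT and 70, 92 and 120 in Snord67KO-2, so the higher CPM came with smaller library totals in Snord67KO-2, whose part in the result was not tested. Position 102829332 had the reverse pattern, at 82.7, 73.6 and 20.8 CPM in 4T1 WT and at most 14.2 CPM in Snord67KO-2, while Snord67KO-1 ranged from 2.91 to 38.6 CPM and overlapped 4T1 WT.

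As gene totals, the counts of Cd44 were 0.48 lower on the log2 scale in Snord67KO-1 than in 4T1 WT (log2 fold change -0.48, SE 0.34) and 0.35 higher in Snord67KO-2 (SE 0.34), from an edgeR fit over all 6295 genes that passed the count filter. Both values are close to the size of their errors. Without the intron stretch, the Cd44 log2 fold change was 1.40 in Snord67KO-1 and 1.30 in Snord67KO-2, so the direction turned in Snord67KO-1. Without 4T1 WT replicate 2, the full total gave -0.77 and 0.04, and without 4T1 WT replicate 3 it gave -0.22 and 0.61.

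Over its exons, Cd44 had 698 counts at 542 positions, of which 458 had a single count. The 4T1 WT libraries had 54, 53 and 40 exonic counts, the Snord67KO-1 libraries 154, 102 and 143, and the Snord67KO-2 libraries 31, 63 and 58. In CPM these were 73.2, 83.0 and 64.0 in 4T1 WT, 229, 207 and 208 in Snord67KO-1, and 146, 171 and 137 in Snord67KO-2. The 3 genotypes did not overlap, with 4T1 WT lowest and Snord67KO-1 highest. The mean was 2.93 times that of 4T1 WT in Snord67KO-1 and 2.06 times in Snord67KO-2. In an edgeR fit of exonic counts only, the Cd44 log2 fold change was 1.55 (SE 0.22) in Snord67KO-1 and 1.26 (SE 0.22) in Snord67KO-2. In bulk RNA such a difference may reflect more cells with Cd44 mRNA or more mRNA per cell, which cannot be told apart, and counts of protected ends measure abundance only together with protection.

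**Figure D2:**
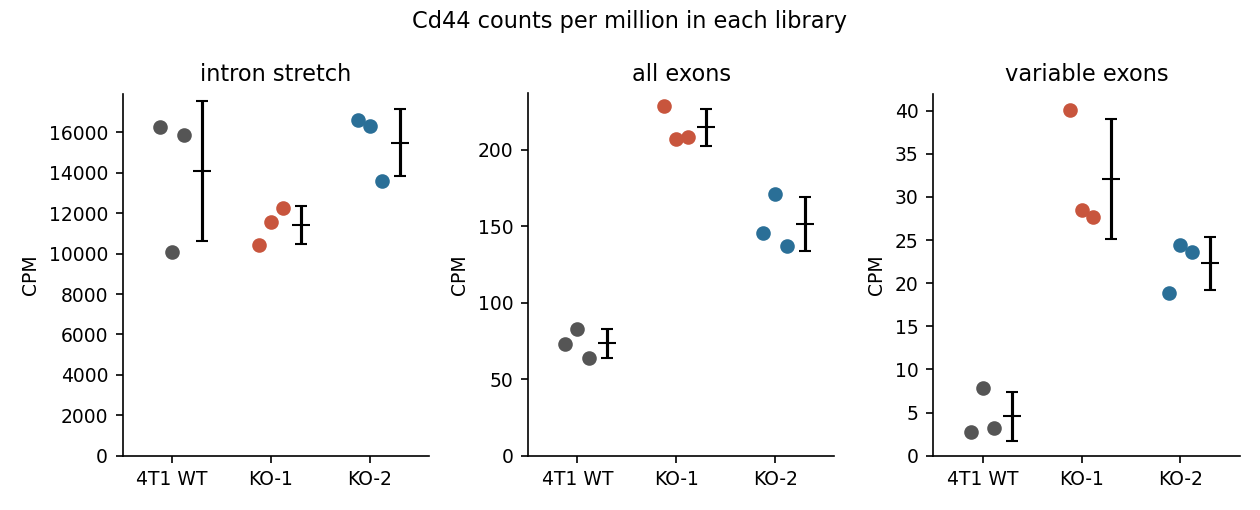
CPM of each library in the Cd44 intron stretch, in all exons and in the variable exons, with the mean ± SD (n = 3) beside the points and a separate scale per panel. The intron stretch overlaps between 4T1 WT and each clone, whereas for all exons the 4T1 WT libraries reach at most 83.0 CPM and the knockout libraries lie at or above 137 CPM.

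The higher exonic level was seen in each class of exon. For the 9 constant exons together, 4T1 WT averaged 68.8 ± 7.32 CPM, Snord67KO-1 averaged 183 ± 5.13 and Snord67KO-2 averaged 129 ± 16.6 (SD, n = 3). For the 3′ untranslated region, which is part of the last constant exon, the 4T1 WT mean was 49.3 ± 4.12 CPM, against 126 ± 4.53 for Snord67KO-1 and 92.2 ± 2.75 for Snord67KO-2 (SD, n = 3). Over the variable exons, the mean of 4T1 WT was 4.58 ± 2.82 CPM, that of Snord67KO-1 was 32.1 ± 6.95 and that of Snord67KO-2 was 22.3 ± 3.02 (SD, n = 3). In each of these classes the knockout libraries lay above the 4T1 WT libraries. The ratio of means to 4T1 WT was 2.65 and 1.87 over constant exons and 7.0 and 4.87 over variable exons, for Snord67KO-1 and Snord67KO-2, with only 9 variable-exon counts in all of 4T1 WT.

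Within the variable region, 78 of 92 counts (84.8%) lay in v8, v9 and v10, the exons printed above. The 4T1 WT libraries together had 2 counts in v8, 1 in v9 and 3 in v10. Snord67KO-1 had 13, 11 and 30 counts, and Snord67KO-2 had 10, 2 and 6. Exons v1, v3, v4 and v5 had 0 counts in every library, v2 had 2 counts, v6 had 5 and v7 had 7, whereas all 9 constant exons had counts. A count of 0 over an exon allows a level of up to 3 counts, which is 4.07 CPM in the deepest library (4T1 WT replicate 1) and 14.1 CPM in the shallowest (Snord67KO-2 replicate 1). The absence of v1 and v3 to v5 was thus measured only down to that limit.

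Per kilobase of exon, v8 to v10 averaged 7.73 ± 4.19 CPM for 4T1 WT, below the 15.3 ± 5.09 of its constant exons before the last exon (SD, n = 3). In Snord67KO-1 the same exons had 71.6 ± 19.2 CPM per kilobase against 40.5 ± 8.12 over the constant exons before the last (SD, n = 3). In Snord67KO-2 the corresponding values were 44.8 ± 9.87 and 26.3 ± 12.2 (SD, n = 3). These 3 exons were picked after their counts were seen, and v9 alone had only 18.8 in Snord67KO-2. Variable exons v1 to v7 averaged 1.77 ± 1.86 CPM per kilobase for 4T1 WT, 4.15 ± 2.80 for Snord67KO-1 and 5.21 ± 6.74 for Snord67KO-2 (SD, n = 3). Taken over all 1245 bases of variable exon, the mean density was 3.68 ± 2.27, 25.8 ± 5.58 and 17.9 ± 2.43 CPM per kilobase for 4T1 WT, Snord67KO-1 and Snord67KO-2 (SD, n = 3), in each genotype below that of the constant exons. The last exon lay close to the earlier constant exons of the same genotype, at 15.7 ± 0.770 CPM per kilobase for 4T1 WT, 41.8 ± 2.63 for Snord67KO-1 and 30.4 ± 0.975 for Snord67KO-2 (SD, n = 3).

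**Figure D3:**
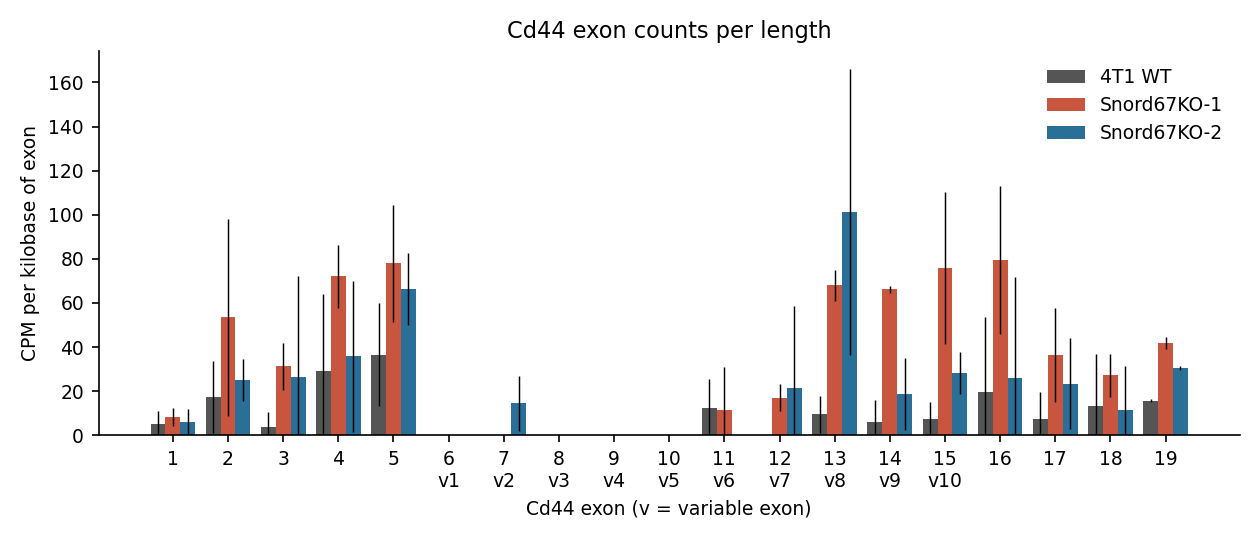
Mean CPM per kilobase of each Cd44 exon in the 3 genotypes (bars, ± SD over 3 libraries, lower bars ending at 0), with variable exons labelled v1 to v10. Variable exons v1, v3, v4 and v5 have no bar, and v8 to v10 have means under 10 CPM per kilobase in 4T1 WT and of at least 18.8 in the clones.

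The share of exonic counts that lay in variable exons was 2 of 54 (3.70%, 95% Wilson interval 1.02% to 12.5%), 5 of 53 (9.43%, 4.10% to 20.3%) and 2 of 40 (5.00%, 1.38% to 16.5%) in 4T1 WT. In Snord67KO-1 it was 27 of 154 (17.5%, 12.3% to 24.3%), 14 of 102 (13.7%, 8.36% to 21.7%) and 19 of 143 (13.3%, 8.67% to 19.8%). In Snord67KO-2 it was 4 of 31 (12.9%, 5.13% to 28.9%), 9 of 63 (14.3%, 7.70% to 25.0%) and 10 of 58 (17.2%, 9.64% to 28.9%). Every knockout library lay above every 4T1 WT library, with a mean of 6.05% ± 3.00 for 4T1 WT, while Snord67KO-1 averaged 14.8% ± 2.33 and Snord67KO-2 averaged 14.8% ± 2.22 (SD, n = 3). The intervals of single libraries overlapped between 4T1 WT and each clone, widely so for Snord67KO-2. They cover counting error only, since PCR copies are not marked in these counts. Among exons before the last one, the mean share was 19.0% for 4T1 WT, 39.6% for Snord67KO-1 and 43.3% for Snord67KO-2. In 4T1 WT this rested on 9 counts in variable exons and 37 in constant exons.

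As a share of all Cd44 counts, the 3′ untranslated region held 0.281% to 0.491% in 4T1 WT libraries, 1.03% to 1.18% in those of Snord67KO-1 and 0.533% to 0.671% in those of Snord67KO-2. For all introns together the ranges were 99.2% to 99.6%, 97.9% to 98.3% and 99.0% to 99.1%, in the same order. Both shares are set by the intron stretch. Once that stretch was left out, the mean share of the 3′ untranslated region was higher in 4T1 WT, at 59.4%, than in Snord67KO-1 (52.3%) or Snord67KO-2 (54.0%), so the direction turned. Introns outside the stretch had 93 counts in all, at a mean of 10.7 ± 5.71 CPM for 4T1 WT, 27.7 ± 5.45 for Snord67KO-1 and 21.7 ± 9.15 for Snord67KO-2 (SD, n = 3).

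The most counted exonic position of Cd44 was 102813332, in the 3′ untranslated region of exon 19, with 43 counts against 6 at the next exonic position. Its counts were 7, 8 and 5 in 4T1 WT, 12, 5 and 3 in Snord67KO-1, and 0, 0 and 3 in Snord67KO-2. As a share of exonic counts, it held 12.5% to 15.1% in 4T1 WT, and 7.79% or less in every knockout library. For the libraries with 0 counts, 3 counts would be 9.68% and 4.76% of the exonic counts of Snord67KO-2 replicates 1 and 2. In CPM, 4T1 WT averaged 10.0 ± 2.30, Snord67KO-1 10.8 ± 6.74 and Snord67KO-2 2.36 ± 4.09 at this position (SD, n = 3), so 4T1 WT and Snord67KO-1 overlapped.

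The bases that follow this position were compared with those that follow positions marked as mispriming, which end in front of a common hexamer. Across 39875 marked exonic positions of all genes, the most frequent bases at the 6 following places read CTGTAG, and 66.7% of the marked positions matched at least 5 of them, against 0.176% of 12506 unmarked positions with a count. The 3′ linker sequence listed by the authors begins with the same 6 bases. The bases after the Cd44 position, TTGTAG, matched 5 of 6, although this position was not marked. Without this position, the variable-exon share was higher than in 4T1 WT by 8.65 percentage points in Snord67KO-1 and by 8.10 in Snord67KO-2. Positions of Cd44 that the authors marked numbered 22 and held 31 counts.

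**Figure D4:**
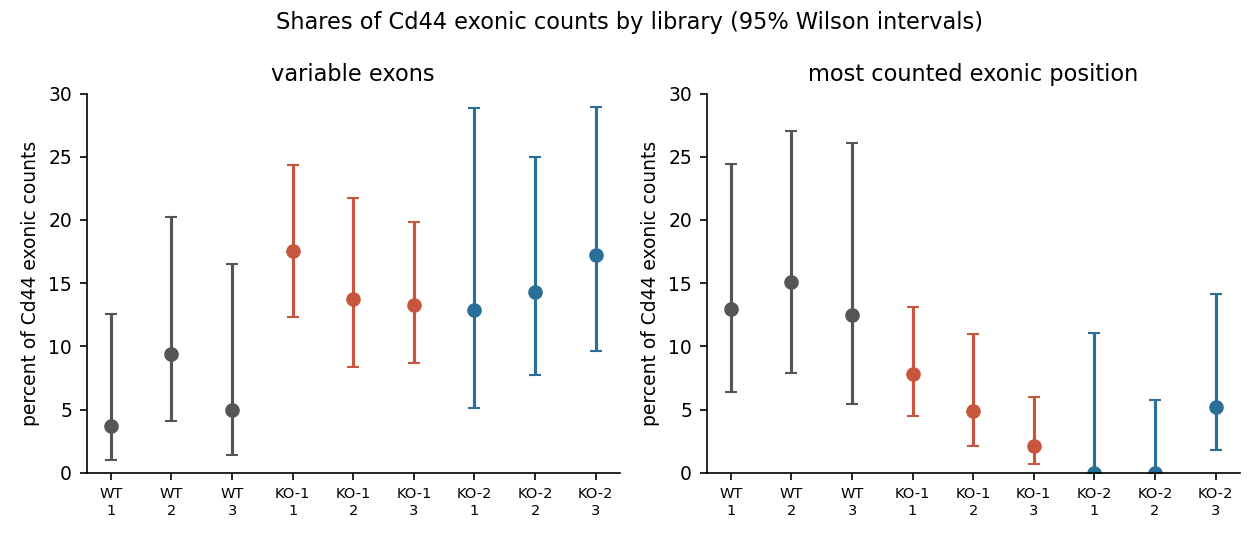
Percent of the exonic Cd44 counts of each library that lay in variable exons (left) and at the most counted exonic position (right), with 95% Wilson intervals for counting error. The 4T1 WT libraries lie below all knockout libraries on the left, at 3.70% to 9.43%, and above them on the right, at 12.5% to 15.1%.

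By the Pearson correlation of log2(CPM + 1) over the 9 libraries, the genes most like the Cd44 total were, among 674 gene names with at least 500 counts (names outside the annotation included, Cd44 and Rn45s left out), Lars2 (r = 0.951), Cdk8 (r = 0.944), Rsph3a (r = 0.927), Tmtc2 (r = 0.917) and Tmem56 (r = 0.910). Of these, Cdk8, Rsph3a, Tmtc2 and Tmem56 each had at least 92.0% of their counts within 100 bases of 1 position and at most 0.559% in exons, like Cd44. By exonic counts among 435 genes, the most similar included Lmna (r = 0.963), Tubb5 (r = 0.957), S100a6 (r = 0.955) and Fn1 (r = 0.955), each with at least 97.2% of their counts in exons. The points of such correlations share library, depth and genotype, so they are given as a description.

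The genes that make, bind or act on Cd44 ligands and the protein itself were taken as 6 lists with 110 members, of which 70 passed the filter of at least 10 counts in at least 3 libraries and were tested with edgeR's quasi-likelihood test. In Snord67KO-1, 12 members were higher and 3 lower at an adjusted p under 0.05, against a background of 10.1% higher and 8.20% lower over all 6295 genes tested. In Snord67KO-2, 7 members were higher and 0 lower, against 2.43% higher and 0.747% lower in the background. At an unadjusted p under 0.05, 18 members were higher and 9 lower in Snord67KO-1 (all genes 15.6% and 15.9%), and 17 were higher and 3 lower in Snord67KO-2 (all genes 9.82% and 9.18%). DESeq2 called 6 higher and 2 lower in the former (all genes 6.12% and 3.02%) and 5 higher and 0 lower in the latter (all genes 1.81% and 0.508%). In Snord67KO-2, DESeq2 gave no adjusted p for 2685 of the 6295 genes. These count as not called, so the last 2 shares are lower than among genes with an adjusted p. The called members include Hmmr in both clones and Mmp9 in Snord67KO-2, which had fewer than 10 counts in every 4T1 WT library and passed the count filter only through knockout libraries, so their calls are not used and their values are given as a description. Fgfr2 and Tiam1, called in Snord67KO-1, reached 10 counts in only 1 4T1 WT library each and met the filter through knockout libraries. Hbegf, called in both clones, and Adam17, called in Snord67KO-1, reached 10 counts in only 2 4T1 WT libraries each. They too met the filter only with knockout libraries. The calls of Fgfr2, Tiam1, Hbegf and Adam17 are likewise not used, though the counts of called members include them. The median log2 fold change over the tested members was 0.20 in Snord67KO-1 and 0.34 in Snord67KO-2, beside -0.04 and -0.03 over all genes. Both comparisons share the 4T1 WT libraries.

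Among ligands, osteopontin (Spp1), a secreted phosphoprotein that binds Cd44, had 97.7, 122 and 100.8 CPM in 4T1 WT. It had 1774, 1714 and 2031 CPM in Snord67KO-1 and 2127, 2246 and 2403 CPM in Snord67KO-2. All knockout libraries lay far above 4T1 WT, with log2 fold changes of 3.97 (SE 0.24, adjusted p = 1.16e-08) and 4.65 (SE 0.25, adjusted p = 3.67e-09) by edgeR. Fibronectin (Fn1), a matrix protein, was also higher, with log2 fold changes of 1.33 (SE 0.19, adjusted p = 0.000239) and 1.31 (SE 0.20, adjusted p = 0.00133) by edgeR. Hbegf, a heparin-binding growth factor that Cd44 can present at the surface, had 12.2 to 23.5 CPM in 4T1 WT libraries. It had between 28.5 and 52.4 CPM in Snord67KO-1 and between 42.4 and 47.3 CPM in Snord67KO-2. Its raw counts were 9, 15 and 10 in 4T1 WT, 29, 14 and 36 in Snord67KO-1, and 9, 16 and 20 in Snord67KO-2. These Hbegf values are a description.

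Receptors and other binding proteins differed in direction. Hmmr, the hyaluronan-mediated motility receptor, had 3.13 to 8.14 CPM in 4T1 WT, 34.9 to 48.8 in Snord67KO-1 and 18.8 to 35.4 in Snord67KO-2, with log2 fold changes of 2.59 and 2.31. Its raw counts were 6, 2 and 4 in 4T1 WT, 27, 24 and 24 in Snord67KO-1, and 4, 8 and 15 in Snord67KO-2. C1qbp, a hyaluronan-binding protein found mostly in mitochondria, fell by 1.48 on the log2 scale in Snord67KO-1 (edgeR, adjusted p = 0.00123), and its log2 fold change in Snord67KO-2 was -0.72 (edgeR, adjusted p = 0.177). These were the only members of the list of other hyaluronan-binding proteins that passed the count filter, 2 of 14. Met, a receptor tyrosine kinase that works with variant Cd44, fell by 0.97 in Snord67KO-1 (edgeR, adjusted p = 0.0149). Fgfr2, a fibroblast growth factor receptor, had a log2 fold change of 1.31 there, from raw counts of 26, 12 and 24 against 12, 5 and 7 in 4T1 WT. In Snord67KO-2 the log2 fold changes of Met and Fgfr2 were -0.35 and 1.19, past no threshold. None of the 4 tested members of hyaluronan synthesis and turnover passed the threshold in either clone by edgeR or DESeq2, and at an unadjusted p under 0.05 edgeR had 1 of them higher in Snord67KO-1 and 2 in Snord67KO-2 (all genes 15.6% and 9.82%). The 4 tested members include the hyaluronan synthase Has2, which had fewer than 10 counts in every 4T1 WT library. It passed the count filter only through knockout libraries, so its values are a description. Has2 had a log2 fold change of 1.60 in Snord67KO-2, from raw counts of 4, 9 and 11 against 4, 9 and 5 in 4T1 WT.

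Of the sheddases Adam10 and Adam17, which cut the Cd44 ectodomain, Adam10 rose by 0.85 on the log2 scale in Snord67KO-1 (edgeR, adjusted p = 0.0213). Adam17 had a log2 fold change of 1.02 there, from raw counts of 31, 25 and 31 against 19, 16 and 8 in 4T1 WT. In Snord67KO-2 the log2 fold changes of Adam10 and Adam17 were 0.48 and 0.50, without a call. Mmp9, a matrix metalloprotease that docks on Cd44, had 4.70 to 9.50 CPM in 4T1 WT, 5.94 to 8.13 in Snord67KO-1 and 49.6 to 67.8 in Snord67KO-2. The log2 fold change in Snord67KO-2 was 3.42 (SE 0.41), from raw counts of 14, 25 and 21 against 7, 3 and 3 in 4T1 WT. Of the 8 tested members of the protease list, 2 were called higher in Snord67KO-1 (10.1% of all genes), and the call of Adam17 among them is not used. In Snord67KO-2 (2.43% of all genes) only Mmp9 passed the threshold, and its call is not used.

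Of the linkers between the Cd44 tail and actin, ezrin (Ezr) rose by 1.54 and moesin (Msn) fell by 1.13 on the log2 scale in Snord67KO-1 (edgeR, adjusted p = 0.00384 and 0.00117). In Snord67KO-2, Ezr had a log2 fold change of 1.13 (edgeR, adjusted p = 0.0998) and Msn one of 0.48 (edgeR, adjusted p = 0.197). Annexin A2 (Anxa2), a membrane and actin binding protein, rose by 0.79 in Snord67KO-1 and by 1.20 in Snord67KO-2 (edgeR, adjusted p = 0.0106 and 0.00325). Ankyrin 3 (Ank3) rose by 1.40 in Snord67KO-1 (edgeR, adjusted p = 0.00906). Tiam1, an exchange factor of Rac1, had a log2 fold change of 1.18 there, from raw counts of 30, 12 and 14 against 10, 8 and 6 in 4T1 WT. Only 17.2% of the counts of Ank3 and 57.6% of those of Tiam1 lay in exons.

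Of the regulators of Cd44 variable-exon splicing, 1 of 26 tested members was called in each clone, higher in both cases, beside 10.1% and 2.43% of all genes. These were Khdrbs2, an RNA-binding protein of the Sam68 family, in Snord67KO-1 (log2 fold change 0.91, edgeR, adjusted p = 0.0254, 48.1% of counts in exons) and Srsf9, a splicing factor, in Snord67KO-2 (1.39, edgeR, adjusted p = 0.0378). Esrp1, an epithelial regulator of Cd44 splicing, had log2 fold changes of -0.65 (edgeR, adjusted p = 0.102) and -0.19 (edgeR, adjusted p = 0.778). Khdrbs1 (Sam68), which acts on variable exon v5, had -0.15 and 0.15. Among the calls above, those of Adam10, Met and Khdrbs2 in Snord67KO-1 and of Srsf9 in Snord67KO-2 were each lost under at least 5 alternative settings of the fit. The same held for Adam17 in Snord67KO-1 and Hbegf in Snord67KO-2, whose calls are not used.

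**Figure D5:**
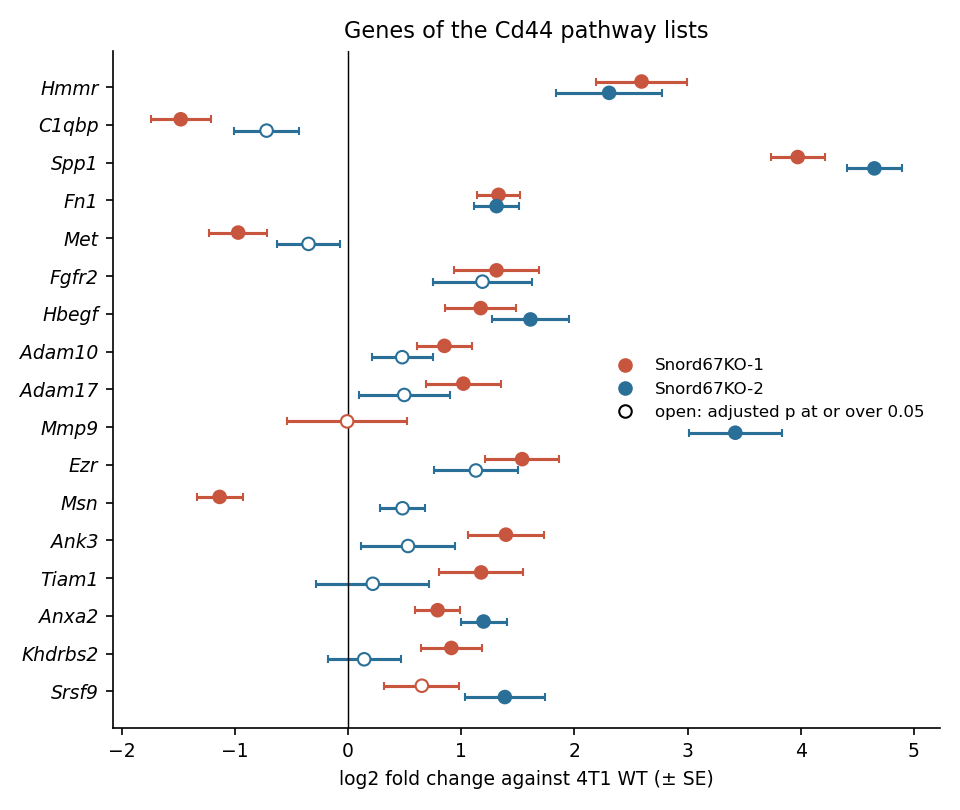
Log2 fold change against 4T1 WT (± SE, edgeR) in both clones for the members of the 6 lists that passed an adjusted p under 0.05 in at least 1 clone, with filled points for the calls. The filled points of Hmmr, Mmp9, Fgfr2, Tiam1, Hbegf and Adam17 are shown as values only, since these calls are not used. Spp1 and Hmmr lie above 2 in both clones, and Mmp9 lies near 0 in Snord67KO-1 and above 3 in Snord67KO-2.

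Compared directly, the clones differed at 2 of the 70 tested members, Mmp9 and Msn, both higher in Snord67KO-2 and Mmp9 tested only because of its counts there, against a background of 1.80% higher and 2.19% lower in Snord67KO-2. Markers of the labelled cell type were present in each genotype, as the epithelial genes Krt8, Krt18, Epcam and Cdh1 had counts in all libraries. They moved with genotype: Krt8, Krt18 and the mesenchymal filament gene Vim were higher in both clones, Epcam was higher in Snord67KO-2, and Cdh1 was lower in Snord67KO-1. In Snord67KO-2 the call of Krt18 was lost in 11 of 15 alternatives and that of Epcam in 7 of 14. Summed over 9 tumour cell markers, 4T1 WT libraries had 538 to 1075 CPM, Snord67KO-1 libraries 2870 to 3373 and Snord67KO-2 libraries 1210 to 1399, an order shared with the exonic counts of Cd44, and the part of this in the result was not tested. Vim was the largest of the 9 in each genotype, with means of 299, 2148 and 520 CPM in the same order. Krt7, Krt14, Epcam and Cdh1 had lower means in Snord67KO-1 than in 4T1 WT. Of 15 markers of other cell types, 12 had fewer than 20 counts in all libraries together, and the erythroid gene Hbb-bs had 0. Their sum ranged from 30.4 to 186 CPM among 4T1 WT libraries, from 29.1 to 105 among those of Snord67KO-1 and from 4.71 to 37.8 among those of Snord67KO-2. Acta2, a smooth muscle actin gene that tumour cells can also express, made up most of these counts for 4T1 WT and Snord67KO-2 but not for Snord67KO-1. The markers other than Acta2 held 19 of 184 counts for 4T1 WT, 77 of 125 for Snord67KO-1 and 9 of 21 for Snord67KO-2. Acta2 averaged 83.6 ± 83.6 CPM for 4T1 WT, 28.4 ± 21.4 for Snord67KO-1 and 10.5 ± 9.36 for Snord67KO-2 (SD, n = 3). It was called lower in Snord67KO-1 (log2 fold change -1.63, edgeR, adjusted p = 0.0412), a call lost in 7 of 14 alternatives. Without 4T1 WT replicate 2, the log2 fold change of Acta2 was -0.74 (edgeR, adjusted p = 0.289). Without Acta2, the sum was 7.83 to 10.9 CPM in 4T1 WT, 16.0 to 86.1 in Snord67KO-1 and 0 to 16.5 in Snord67KO-2.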

How the data were processed

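After poly(A) selection, fragmentation, oxidation and linker ligation, the authors trimmed reads with cutadapt, merged pairs with pear and mapped them. They deposited raw counts, not normalized, of the reads ending at each position. The submitters' processing notes name cutadapt, STAR and mm10, whereas the methods name the build m39. GRCm38 with GENCODE M21 was used here, since 98.6% of the positions whose gene could be looked up fell within its bounds. The handling of multiply mapped or duplicate reads and the definition of the mispriming column are not given in the sources used here. Of 18 samples, the 9 oxidized libraries were analysed, and the control samples were not analysed here.

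Positions of Cd44 were assigned to exons of any of its protein-coding transcripts. CPM used each library's total count. The intron stretch is the set of positions within 100 bases of the most counted one. Gene totals were fitted with edgeR's quasi-likelihood test (TMM, all 9 libraries, genes reaching 10 counts in 3 or more of them, a contrast for each clone, Benjamini-Hochberg adjustment over all genes, threshold 0.05), and the fit was tested on simulated data. Changes of list genes are such gene totals, intronic counts included. Cd44, the lists and the tests were chosen with earlier results of these data known, and the intron stretch, the exonic-only fits, the comparison of hexamers and the direct comparison of the clones were added after the counts had been seen. Named were Cd44, its most counted positions, the 5 genes most like it, and list members past the threshold in either clone, with Has2, Esrp1 and Khdrbs1 named after their values were seen. Some items that these rules name are not reported here. Tests of the shares of Cd44 counts by genotype are not reported, because the same contrast served to choose the gene.

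Every pair of replicates differed beyond sampling noise, so all libraries were kept as separate replicates. The cultures behind the replicates are called biologic by the methods. Alternatives were other size factors, library totals, DESeq2, count filters, a replicate block, fits without marked positions or Rn45s, the longest transcript, and the omission of single libraries. Tools were edgeR 4.0.16, limma 3.58.1 and DESeq2 1.42.0 under R 4.3.3, and Python 3.11.15 with numpy 2.4.6, pandas 2.3.3, scipy 1.17.1 and matplotlib 3.10.9.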

Additional observations from a re-analysis of the deposited data

Results flagged for a closer look

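Snord67KO-2 was compared directly with Snord67KO-1 in the same edgeR fit. Among the list members and markers named above that had passed the threshold against wild-type cells in either clone, 5 differed between the clones. They are given as values. Msn was higher in Snord67KO-2 by 1.62 on the log2 scale (SE 0.21, edgeR, adjusted p = 0.000275), Epcam by 2.28 (SE 0.34, edgeR, adjusted p = 0.00127) and Cdh1 by 1.04 (SE 0.26, edgeR, adjusted p = 0.0298). Vim was lower in Snord67KO-2, with a log2 difference of -1.67 (SE 0.22, edgeR, adjusted p = 0.000324). Mmp9 was higher by 3.43 (SE 0.41), but it passed the count filter only through its Snord67KO-2 libraries, so this value is a description. The marker Krt7, which had passed the threshold against wild-type cells in neither clone, also differed between the clones. It was higher in Snord67KO-2 by 1.03 on the log2 scale (SE 0.25, edgeR, adjusted p = 0.0286). For Cd44 itself no such test was made, since its values by genotype served to choose it.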

How the results depend on the processing

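The Cd44 gene total gave log2 fold changes of -0.48 and 0.35 in Snord67KO-1 and Snord67KO-2. It moved to 1.40 and 1.30 without the intron stretch and to 1.55 and 1.26 with exonic positions only, and ranged from -0.77 to -0.22 and from 0.038 to 0.61 with each library left out. The pathway lists held 15 and 7 called members, including those whose calls are not used. DESeq2 gave 8 in Snord67KO-1, the filter of 30 counts in 3 libraries gave 9 and 3 with fewer genes tested, library totals only gave 2 in Snord67KO-2, and leaving out each library gave 8 to 15 and 3 to 9, with the lowest values without Snord67KO-1 replicate 1 (8) and 3 (9), and without Snord67KO-2 replicate 1 (4), 2 (4) and 3 (3). Over all genes the 1149 and 200 calls became 575 with DESeq2 in Snord67KO-1, 687 and 32 with library totals only, 2057 and 436 with at least 1 count, 466 with 30 counts in 3 libraries in Snord67KO-1, 721 in Snord67KO-1 with exonic positions only, and 432 to 1084 and 53 to 307 with each library left out. With library totals only, the split of higher against lower calls was 549 to 138 and 30 to 2, beside 633 to 516 and 153 to 47, and the median of all genes shifted from -0.04 to 0.08 and from -0.03 to -0.27. The cause was not tested. The difference in the 3′ untranslated region share turned from 0.722, 0.228 and 0.475 percentage points (Snord67KO-1, Snord67KO-2, both clones) to -7.11, -5.45 and -6.28 without the stretch, since the stretch is the denominator. The difference in variable-exon share belongs to the values that chose the gene, so its range is a description. With each library left out it was 7.46 to 10.5 percentage points in Snord67KO-1 and 7.55 to 10.5 in Snord67KO-2. Over both clones it was 7.61 to 10.5. Without the last exon the 3 values were 20.5, 24.2 and 22.4. Leaving out the most counted position, which is intronic, or adding a replicate block could not change this difference, and the longest transcript gave the same values. Of 447 alternative values for the 31 calls of named genes, 0 reversed and 88 no longer passed the threshold. Among these calls are those of Hmmr, Mmp9, Fgfr2, Tiam1, Hbegf and Adam17, which are not used. The most frequent losses were those of Krt18 (11 of 15) and Srsf9 (8 of 14) in Snord67KO-2 and of Adam17 (9 of 14) in Snord67KO-1.

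Correlations of deviations between samples with the same replicate number ranged from -0.147 to 0.326. The highest were 0.326 and 0.277, between 4T1 WT and Snord67KO-1 for replicates 2 and 3. Whether replicate numbers pair the samples was not tested, and the main fit did not pair them. With a replicate block the pathway counts were 16 and 8, all genes gave 1266 and 279 calls, and the Cd44 total gave -0.43 and 0.40. Depth limited the exonic results, as 4T1 WT had 147 exonic Cd44 counts in all and 9 in variable exons.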
